A study of Mus musculus with 6 samples.

Results

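Box H/ACA-sized small nucleolar RNAs (snoRNAs) were compared between exosomes of undifferentiated P19 cells (UD-P19) and exosomes of the neurons derived from them (P19N). Members were selected on annotation and on measured counts: the GENCODE mouse annotation, release 21, gave the class as snoRNA, the transcript was longer than 114 and shorter than 166 bases, and its counts over all 6 libraries summed to at least 15. Transcripts of the imprinted Snhg14 and Meg3-Rian loci, of the host genes Gas5 and Snhg1, and Snord118 were left out. These criteria kept 118 of the 5880 transcripts in the deposited table. Of 188 snoRNAs that met the criteria on class, length and position, 70 did not reach the minimum, and 13 of those had no count at all. The sum takes both groups together, yet 14 members reached 15 counts in UD-P19 only and 11 in P19N only, so that the minimum itself can favour a difference in these. Another 85 reached it in each group, and 8 only in the sum of both. Just inside the minimum stood Gm23658 with 15 counts and Gm23974 with 16, and just outside it Gm26236 with 13 and Gm24313 with 12.

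P19 is a mouse embryonal carcinoma line that becomes neuronal after exposure to retinoic acid. The UD-P19 libraries (replicates 1 to 3) came from cells held for a day in defined medium with N2 supplement and no serum. The P19N libraries (replicates 4 to 6) came from cultures that had received retinoic acid for 4 days and were 8, 10 and 12 days old. P19N cultures were grown in neurobasal medium with N2 and B27 supplements. To stop proliferation they were exposed for a day to fluorouridine and uridine on days 3 and 8. Medium of day 8 was collected before the second exposure, so that replicate 4 precedes it. UD-P19 cultures had no such exposure described, and its part cannot be told apart from the difference between the groups. There were 3 exosome preparations per group, which the study calls biological replicates, and culture age and replicate cannot be told apart in P19N. P19N medium was collected repeatedly from the first of these ages on, and the sources used here do not say whether the 3 P19N preparations came from separate flasks, so that p-values measure the spread between these preparations. Both groups come from 1 cell line, and the labels name no sorting of neurons from the other cells of the P19N cultures.

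Box H/ACA snoRNAs guide the conversion of uridine to pseudouridine. Each folds into hairpins joined by a hinge (box H) and followed by a tail (box ACA), and pairs with its target RNA through internal loops, while the proteins dyskerin, Nop10, Nhp2 and Gar1 bind the RNA and catalyse the change. Most targets are ribosomal RNA (rRNA), and most mammalian members are cut from the introns of host genes, many of which code for ribosomal proteins or translation factors. Box C/D snoRNAs, the other large class, direct 2'-O-methylation and are usually shorter.

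The label was checked against the sequences, read from the GENCODE transcripts on GRCm38. An H/ACA tail, the letters ACA followed by 3 bases at the 3' end, closed 91 of the 118 members (77.1%), and 107 (90.7%) held ACA within the last 10 bases. The minimum free energy structure had at least 2 stems of 30 bases or more in 104 members (88.1%), and the hinge letters ANANNA lay between the first 2 stems in 67 (56.8%). Among 137 tested transcripts of the same length that were neither snoRNAs nor scaRNAs, 2 (1.46%) ended in this tail and 14 (10.2%) folded into 2 such stems, and among 128 shorter, box C/D-sized snoRNAs the counts were 3 and 3 (2.34% each). The scaRNAs, the related guides of Cajal bodies, share these features: of 18 tested scaRNAs of up to 220 bases, 12 (66.7%) had the tail and 15 (83.3%) had 2 such stems, so that the check does not tell H/ACA snoRNAs from scaRNAs. Among the members, Gm24336, Snora44, AF357399, Gm22362, Mir1949 and Gm25907 lacked ACA in the last 10 bases but had 2 such stems. They were kept under the label. The label did not hold for 5 members, which had neither this ACA nor 2 such stems. One is Gm24208, which has neither the tail nor 2 such stems and is a near copy of Snord118, the box C/D RNA U8. The other 4, Snord15a, Snord15b, Gm22486 and Gm25835, had TGATGA (box C) within the first 20 bases and CTGA (box D) within the last 15, and no 2 such stems. RefSeq lists Gm22486, at the same ends, as Snord94. These 5 are reported with the set that the length rule made, and separately below. A match describes the letters in these windows only.

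The sequences that the results turn on follow from 5' to 3', on the strand named, with the ACA of the tail in capitals, or, in the last 2, box C and box D. The first is the most abundant member, and the next 5 were called lower in P19N than in UD-P19 exosomes. Snora70 and Gm26165 are near copies.
Gm24029: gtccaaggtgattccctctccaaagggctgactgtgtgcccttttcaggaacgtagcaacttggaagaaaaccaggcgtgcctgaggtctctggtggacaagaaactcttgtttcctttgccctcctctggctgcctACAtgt
Snora34: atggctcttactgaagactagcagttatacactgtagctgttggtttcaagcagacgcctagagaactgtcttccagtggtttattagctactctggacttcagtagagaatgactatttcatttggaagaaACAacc
Snora52: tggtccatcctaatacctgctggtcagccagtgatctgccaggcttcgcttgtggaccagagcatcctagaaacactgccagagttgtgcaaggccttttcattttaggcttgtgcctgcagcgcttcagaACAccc
Snora21: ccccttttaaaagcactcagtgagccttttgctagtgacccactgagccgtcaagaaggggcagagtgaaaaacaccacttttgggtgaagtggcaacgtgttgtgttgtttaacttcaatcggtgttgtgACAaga
Snora70: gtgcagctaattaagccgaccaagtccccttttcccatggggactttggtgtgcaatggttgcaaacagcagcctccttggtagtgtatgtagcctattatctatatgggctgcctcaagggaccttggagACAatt
Gm26165: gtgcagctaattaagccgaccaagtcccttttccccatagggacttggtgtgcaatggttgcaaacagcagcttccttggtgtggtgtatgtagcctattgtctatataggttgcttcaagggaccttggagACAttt
The next 5 were called higher in P19N. Gm25776 and Gm25848 are near copies of each other, and Gm24336 had no ACA in its last 10 bases.
Gm24336: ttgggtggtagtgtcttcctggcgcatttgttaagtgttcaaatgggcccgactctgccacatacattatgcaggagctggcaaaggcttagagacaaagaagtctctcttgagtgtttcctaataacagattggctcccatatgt
Gm22676: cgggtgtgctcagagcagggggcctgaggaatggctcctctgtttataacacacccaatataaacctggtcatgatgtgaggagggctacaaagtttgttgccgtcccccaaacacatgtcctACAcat
Gm25776: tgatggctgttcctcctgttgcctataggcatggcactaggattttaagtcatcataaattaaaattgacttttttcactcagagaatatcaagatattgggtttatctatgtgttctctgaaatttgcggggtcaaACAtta
Gm25848: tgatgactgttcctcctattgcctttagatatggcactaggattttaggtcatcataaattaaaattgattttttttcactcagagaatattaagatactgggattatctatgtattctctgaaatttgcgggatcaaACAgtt
Gm24507: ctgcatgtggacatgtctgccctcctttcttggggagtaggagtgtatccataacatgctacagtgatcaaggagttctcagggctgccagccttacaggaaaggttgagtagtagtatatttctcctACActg
The last 2 carry boxes C and D and lie in Eif4a1, a translation initiation helicase, and Ptcd3, a protein of the mitochondrial ribosome.
Gm25835: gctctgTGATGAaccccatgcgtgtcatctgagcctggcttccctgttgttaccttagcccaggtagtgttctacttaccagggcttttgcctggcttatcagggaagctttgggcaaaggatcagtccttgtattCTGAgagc
Gm22486: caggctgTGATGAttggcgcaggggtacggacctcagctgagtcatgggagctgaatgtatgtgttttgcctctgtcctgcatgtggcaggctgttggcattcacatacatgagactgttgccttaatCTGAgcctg
In GRCm38, Gm24029 lay at chr11:69667834-69667976 (- strand) in Eif4a1, Snora34 at chr15:98519716-98519853 (- strand) in Kansl2, Snora52 at chr7:141448803-141448939 (+ strand) in Rplp2, Snora21 at chr11:97781639-97781775 (- strand) in Rpl23, Snora70 at chrX:74272484-74272620 (+ strand) in Rpl10 and Gm26165 at chr2:144261589-144261726 (- strand) in Snx5. Gm24336 lay at chr19:44113979-44114124 (- strand) in Cwf19l1, Gm22676 at chr2:112500869-112500997 (+ strand) in Aven, Gm25776 at chr12:91573430-91573572 (- strand) in Gtf2a1, Gm25848 at chr16:32243712-32243855 (- strand) in Fbxo45, Gm24507 at chr13:90098981-90099114 (+ strand) in Tmem167, Gm25835 at chr11:69668852-69668995 (- strand) in Eif4a1 and Gm22486 at chr6:71882557-71882693 (- strand) in Ptcd3. Of these 13, Gm24029, Snora52, Snora70 and Gm22486 overlap an exon of a noncoding or retained-intron transcript of the host, and the others lie in introns only.

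Libraries held between 454499 and 887460 counts, and members took between 0.707% and 1.15% of them. A count of 0 allows up to 3 counts, or between 3.53 and 7.37 counts per 1000000 (CPM) on the TMM scale of the levels given here. One transcript, Gm42418, held 17.0% ± 0.986 (SD, n = 3) of P19N counts and 58.4% ± 8.54 of UD-P19 counts, which moves any share of all counts. UD-P19 replicate 2 stood apart from its group. Its 11 neuronal marker RNAs in the table summed to 175 counts. The other UD-P19 libraries had 11 and 32, and the P19N libraries between 77 and 129. The largest entries in replicate 2 were transcripts of the imprinted Meg3-Rian locus, Meg3 with 41 counts and Rian with 35 and 29. Mir9-1, Mir9-2, Mir9-3 and Mir124a-3 had 0 counts in replicate 2, and at most 2 in any P19N library. The 6 pluripotency miRNAs summed to 14 counts in replicate 2 and to between 0 and 3 in the other libraries. The markers of muscle, blood, oligodendrocytes and endoderm or mesoderm were not rows of the table. The counts of calls are given with and without this library, and the part of its markers in them was not tested.

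Across 1286 tested transcripts, edgeR's quasi-likelihood F test with TMM scaling called 24% at a Benjamini-Hochberg adjusted p of at most 0.05, 15% higher and 9.02% lower in P19N. Of the 118 members, 31 were called (26.3%), 10 higher (8.47%) and 21 lower (17.8%) in P19N exosomes. The median log2 fold change of the members was -0.40 and that of all tested transcripts was 0.21; 78 members lay below 0, against 45.6% of all tested. The 3 libraries of one group lay entirely above the 3 of the other in 45 members, 29 of them lower and 16 higher in P19N; the same held for 42% of all tested transcripts, 16.8% lower and 25.2% higher. Without UD-P19 replicate 2 the medians were -0.65 and 0.54, and without P19N replicate 6 they were -0.76 and -0.08. Among the 85 members that reached 15 counts in each group, 6 were called higher and 15 lower. The other 10 called members did not reach it in the group where they were low: Gm24336, Gm22676, Gm22488 and Gm25852 passed through P19N alone, Gm23451, Gm23855, Gm22579, Gm24095 and Gm24945 through UD-P19 alone, and Gm23658 through the sum only. With the exception of Gm23451, these would not have been tested at their lower level in both groups. Without the 5 members for which the label did not hold, 9 of 113 were called higher and 20 lower. The members thus split in both directions, and the plot of ranked fold changes shows both tails. With any 1 library left out, 14 of the 31 calls held, 4 higher and 10 lower, of which 1 and 8 reached the minimum in each group. Without UD-P19 replicate 2, 11 members were called higher and 41 lower (25.7% and 15.6% of all tested, 41.2% together). Without P19N replicate 5 there were 4 and 10 (9.41% and 4.04%, 13.5% together).

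**Figure D1:**
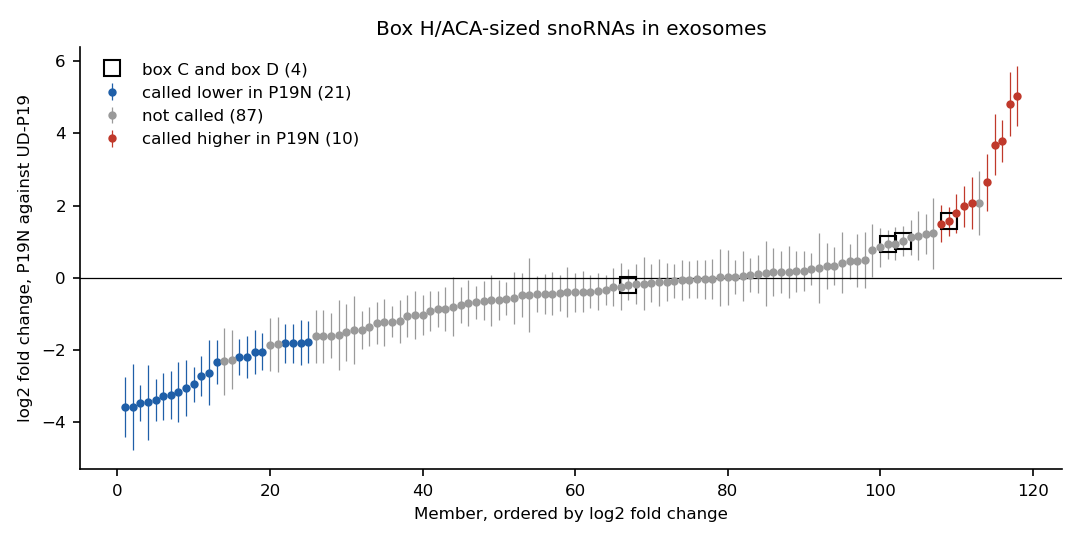
Log2 fold change of the 118 members in P19N against UD-P19 exosomes (points, with the standard error of the edgeR fit as bars), ordered along the horizontal axis, with called members in colour and the 4 members with boxes C and D in squares. The 21 members called lower reach -3.58 and the 10 called higher reach 5.03.

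The members called lower in P19N included 4 snoRNAs within ribosomal protein genes. Values after ± are SDs of levels over 3 libraries or standard errors of log2 fold changes. Snora21, which guides pseudouridylation of large-subunit rRNA and lies in an intron of Rpl23, had 668, 309 and 672 CPM in UD-P19 and 51.8, 48.9 and 112 CPM in P19N. All 3 UD-P19 libraries were above every P19N library, and the level fell from 549.7 ± 208 CPM to 70.8 ± 35.4 CPM (SD, n = 3), log2 fold change -2.95 ± 0.50, edgeR adjusted p = 0.000526. Snora52, in the gene of the ribosomal stalk protein Rplp2, had 111, 49.8 and 91.0 CPM in UD-P19 and 5.89, 7.94 and 9.77 CPM in P19N. No library of one group reached the range of the other, log2 fold change -3.38 ± 0.58, edgeR adjusted p = 0.000601. Snora70, which lies in the X-linked Rpl10 and guides small-subunit rRNA modification, had 56.5, 84.1 and 84.4 CPM in UD-P19 and 17.7, 14.5 and 16.7 CPM in P19N. Its groups were again separate, log2 fold change -2.19 ± 0.51, edgeR adjusted p = 0.00511. Snora65, in Rpl12, had 123, 52.1 and 144 CPM in UD-P19 and 9.42, 27.8 and 54.4 CPM in P19N, so that P19N replicate 6 lay above UD-P19 replicate 2 and the groups overlapped. Its log2 fold change was -1.80. Without P19N replicate 4 the adjusted p rose to 0.231, and in the fit over summed families described below, where Snora65 is a family of its own, it was 0.0986. Without P19N replicate 6 the log2 fold change was -2.80. Of the 20 members in ribosomal protein genes these 4 were called lower (20%) and none higher. Over all tested transcripts 9.02% were called lower and 15% higher, and over all members 17.8% and 8.47%. The rest of the members in ribosomal protein genes had log2 fold changes between -1.45 and 0.94.

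Among the called members, Snora34 had the smallest spread within groups relative to its means. It lies in an intron of Kansl2, a subunit of a histone acetyltransferase complex, and the hairpin of miR-1291 shares 92 of its bases. Its levels were 155, 152 and 154 CPM in UD-P19 and 13.0, 14.5 and 14.0 CPM in P19N. Within each group the 3 libraries were nearly level, and between the groups the mean went from 153 ± 1.57 CPM to 13.8 ± 0.803 CPM (SD, n = 3), log2 fold change -3.46 ± 0.50, edgeR adjusted p = 0.000113. The miR-1291 hairpin, a row of its own with 5 unique counts of 105, had 38, 9 and 38 counts in UD-P19 and 10, 7 and 3 in P19N (log2 fold change -2.65 ± 0.73, edgeR adjusted p = 0.0139), and reads of the shared bases cannot be assigned to one or the other. Snora2b, also in Kansl2, had 4, 8 and 9 counts in UD-P19 and 2, 3 and 2 in P19N, log2 fold change -1.85 ± 0.74, edgeR adjusted p = 0.0834, which did not pass the test.

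Snora15, an rRNA guide in Cct6a, the gene of a chaperonin subunit, had 299.6, 56.9 and 220.1 CPM in UD-P19 and 2.36, 5.29 and 40.5 CPM in P19N. UD-P19 replicate 2 was the lowest of its group and P19N replicate 6 the highest of its own, without overlap, log2 fold change -3.58 ± 0.84, edgeR adjusted p = 0.00549. Without P19N replicate 6 the log2 fold change was -5.87. Only 5 of its 338 counts were listed as exact, against a median of 72.9% over the members. The sources used here do not define this column, which is read here as reads without a mismatch. The 6 Cct6a transcripts in the table had log2 fold changes between -0.18 and 1.29, none called. Further members called lower were Gm26493 in Cnot1, the scaffold of the deadenylase complex, and Gm26397 in Tomm20, a receptor of the mitochondrial import machinery. Gm26493 had 177, 77.0 and 184 CPM in UD-P19 and 23.6, 14.5 and 57.2 CPM in P19N (log2 fold change -2.19 ± 0.58, edgeR adjusted p = 0.0113), and Gm26397 had 111, 32.0 and 116 CPM in UD-P19 and 24.7, 17.2 and 32.1 CPM in P19N (log2 fold change -1.78 ± 0.57, edgeR adjusted p = 0.0317). The first pair of groups did not overlap, the second did, and neither call held without P19N replicate 5 (adjusted p = 0.0835 and 0.145). In the fit over families Gm26397, also a family of its own, was not called (adjusted p = 0.0549). Gm23451, in Top2a, the DNA topoisomerase of dividing cells, had 17, 14 and 22 counts in UD-P19 and 6, 4 and 4 in P19N, log2 fold change -2.34 ± 0.62, edgeR adjusted p = 0.0109; without P19N replicate 5 the adjusted p was 0.0613. Summed with its 3 near copies it was not called (a log2 fold change of -0.81 ± 0.45, edgeR adjusted p = 0.241), and the copies reached a log2 fold change of 0.49.

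The 7 members in the noncoding genes Snhg12, Snhg8, Snhg15 and Dancr had no unique counts, and the table also lists host transcripts that hold their sequences. The 2 annotated forms of Snora16a in Snhg12, which differ by 1 base in length, had 135, 65.2 and 131 CPM in UD-P19 and 25.9, 18.5 and 34.9 CPM in P19N and, for the longer form, 142, 72.3 and 103 CPM in UD-P19 and 23.6, 18.5 and 47.4 CPM in P19N. UD-P19 was higher in all 3 libraries for both, with log2 fold changes of -2.05 and -1.82. Snora24, a guide for small-subunit rRNA inside Snhg8, had 174, 75.8 and 194 CPM in UD-P19 and 30.6, 29.1 and 65.6 CPM in P19N, log2 fold change -1.82 ± 0.54, edgeR adjusted p = 0.0203. The Snhg8 transcript that contains it had a log2 fold change of -1.69 (edgeR adjusted p = 0.0329), and 2 of the 8 Snhg12 transcripts were called lower. The 2 Snora16a forms summed gave a log2 fold change of -1.77 ± 0.44, edgeR adjusted p = 0.0166. The reads behind these values may come from the snoRNA or from the exons of the host, which was not tested; without P19N replicate 5 these 3 calls were lost (adjusted p between 0.0782 and 0.131).

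Several members were near-identical copies, which share reads. At 90% identity over 80% of the longer sequence, the 118 members fell into 87 families, 21 of them with more than 1 member. When each family was summed before the test, 22 families were called, 10 higher and 12 lower, against 9.72% and 9.1% of all 813 families. Of the 31 called members, 26 were in a family called the same way, and Snora65, Gm26397, Gm23451, Gm24151 and Gm24208 were not. The Snora70 family, Snora70 with Gm26165 in Snx5 (90.6% identity) and Gm23855 outside any annotated host gene on its strand, was lower in every member. Gm26165 had 214, 43.8 and 87.7 CPM in UD-P19 and 8.25, 9.26 and 18.1 CPM in P19N (log2 fold change -3.25 ± 0.66, edgeR adjusted p = 0.00203), and all of its 204 counts were unique. Gm23855 had 11, 29 and 18 counts in UD-P19 and 4, 2 and 1 in P19N, none of them unique (log2 fold change -3.28 ± 0.66, edgeR adjusted p = 0.00191). The 3 summed gave a log2 fold change of -2.68 ± 0.41, edgeR adjusted p = 0.00140. A family of 3 with no unique count, Gm22579 in Taf1d, Gm24095 in Zfp935 and Gm24539 in Zfp808 (99.2% to 100% identity), gave a log2 fold change of -2.60 ± 0.60, edgeR adjusted p = 0.0116; its reads cannot be assigned to 1 locus. Without P19N replicate 6 Gm24095 went from -2.63 to -4.72. Its call held with DESeq2 size factors (edgeR adjusted p = 0.0328). It was lost with TMMwsp scaling (0.0674), total counts (0.0933) and TMM on snoRNAs only (0.0882). Gm24151, a copy of the abundant Gm24029 at 90.9% identity with 4 unique counts of 64, had a log2 fold change of -2.06, lost without P19N replicate 4 (adjusted p = 0.137), while the 2 summed were not called (a log2 fold change of -0.39 ± 0.42, edgeR adjusted p = 0.545).

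Gm24208 was called lower, but its values set it apart. It is 96.2% identical to Snord118, the U8 snoRNA, lacks the ACA tail, folds into 1 stem and had 1 unique count of 749. The counts were 27, 599 and 44 in UD-P19 and 30, 19 and 30 in P19N, so that UD-P19 replicate 2 held most of them. The log2 fold change was -3.06 with all libraries and -1.03 without UD-P19 replicate 2 (edgeR adjusted p = 0.0483), DESeq2 gave no adjusted p for it, and the family summed with Snord118 was not called (a log2 fold change of -0.36 ± 0.30, edgeR adjusted p = 0.439).

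**Figure D2:**
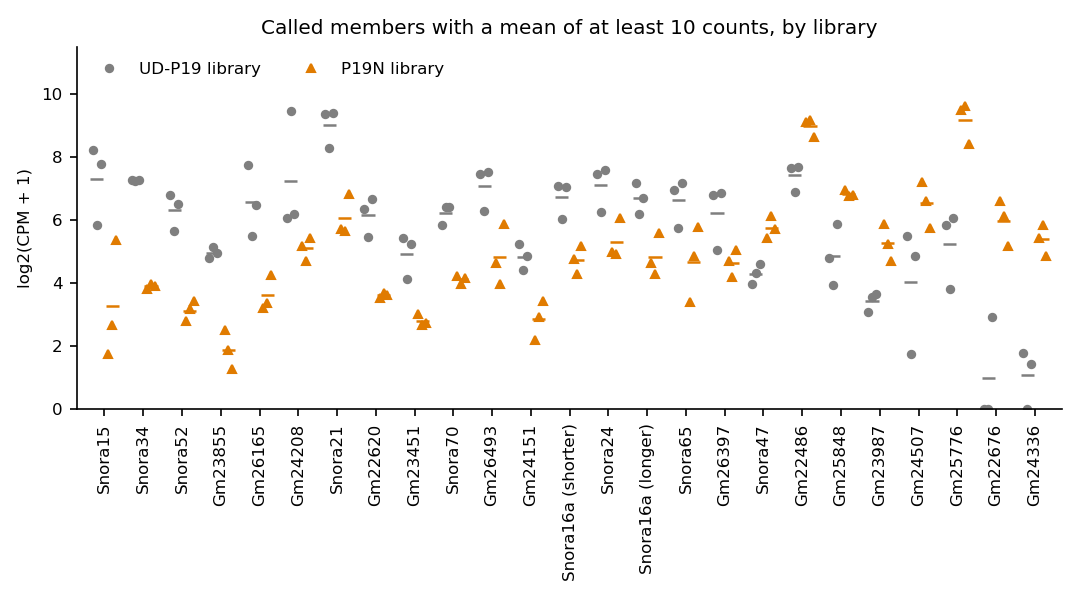
Level of each of the 25 called members with a mean of at least 10 counts, as log2(CPM + 1), in UD-P19 libraries (grey circles) and P19N libraries (orange triangles), with the mean of each group as a line. Snora34 had the tightest groups, and Gm24208 had 1 UD-P19 library, replicate 2, far above the others.

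Of the 10 members called higher in P19N, 8 lay in introns only, as did 63 of the 118 members, and none lay in a ribosomal protein gene, which held 20 of the 118. Gm25776, in an intron of Gtf2a1, a subunit of the general transcription factor TFIIA, had 56.5, 13.0 and 66.2 CPM in UD-P19 and 717, 782 and 338 CPM in P19N. Every P19N library was above every UD-P19 library, and the mean rose from 45.2 ± 28.3 CPM to 612 ± 240.0 CPM (SD, n = 3), log2 fold change 3.78 ± 0.59, edgeR adjusted p = 0.000259; all 1516 counts were unique, but only 12.6% were exact. Its near copies Gm25848 in Fbxo45 (90.8% identity) and Gm23987, outside any annotated host gene on its strand, were higher as well. Gm25848 had 27.0, 14.2 and 57.9 CPM in UD-P19 and 124, 107 and 110.2 CPM in P19N (log2 fold change 1.79 ± 0.55, edgeR adjusted p = 0.0246), and Gm23987 had 3, 9 and 7 counts in UD-P19 and 49, 28 and 18 in P19N (log2 fold change 1.98 ± 0.57, edgeR adjusted p = 0.0186). Both were lost without P19N replicate 4 (adjusted p = 0.0989 and 0.138), and the 3 copies summed gave a log2 fold change of 3.27 ± 0.45, edgeR adjusted p = 0.000839.

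Some of the higher members were nearly without counts in UD-P19. Gm24336, in an intron of Cwf19l1, had 1, 0 and 1 counts in UD-P19 and 36, 43 and 20 in P19N. The ratio of the summed, depth-scaled counts was 39.5, with a 95% counting interval of 10.7 to 331, and the fit gave log2 fold change 5.03 ± 0.83, edgeR adjusted p = 0.000412. Gm22676, in an intron of Aven, an inhibitor of cell death, had 0, 0 and 4 counts in UD-P19 and 81, 52 and 25 in P19N, a ratio of 31.6 (12.1 to 117), with 9 exact counts of 162. The fit gave log2 fold change 4.81 ± 0.89, edgeR adjusted p = 0.00106. All its UD-P19 counts came from replicate 3, without which UD-P19 is at 0 and the fitted value, 8.47, is no bound. Gm22488, in Wdyhv1, had 0, 1 and 2 counts against 28, 18 and 8, a ratio of 14.4 (4.67 to 71.9), with 3 exact counts of 57 and no unique one. Its fit gave log2 fold change 3.68 ± 0.85, edgeR adjusted p = 0.00500. These 3 calls held with any 1 library left out, but all 3 members were tested only because of their P19N counts, so that this is no measure of their stability. Gm25852, in Frmd4b, had 1, 1 and 2 counts against 13, 8 and 13, a ratio of 6.79 (2.42 to 26.3), and a fit of log2 fold change 2.64 ± 0.78, edgeR adjusted p = 0.0210; the call was lost without P19N replicate 6 (adjusted p = 0.0856). The counting intervals cover counting error only, since reads are not independent molecules.

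Gm24507 and Snora47 were also called higher. In Gm24507, in an intron of Tmem167, levels were 44.2, 2.37 and 28.1 CPM in UD-P19 and 148, 96.5 and 53.0 CPM in P19N. UD-P19 replicate 2 was the lowest, log2 fold change 2.07 ± 0.72, edgeR adjusted p = 0.0482, and the call was lost without P19N replicate 4 (adjusted p = 0.221). Snora47, in Zbed3, had 14.7, 19 and 23.2 CPM in UD-P19 and 42.4, 68.8 and 51.6 CPM in P19N. Its call, log2 fold change 1.5 ± 0.51, edgeR adjusted p = 0.0446, was lost under 11 of 17 alternatives, DESeq2 and 5 of the 6 left-out libraries among them. Over the 10 members called higher the median share of exact counts was 35.5%, against 73.1% over the 21 called lower and 71.3% over all tested transcripts.

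The thin members called lower were Gm23658 and Gm24945. Gm23658, in Cbwd1, summed to 14 counts in UD-P19 and 1 in P19N, a ratio of 17.5 (2.67 to 741), and the hairpin of miR-3084 shares 68 of its bases. Gm24945, outside any annotated host gene on its strand, summed to 28 and 3 counts, a ratio of 11.7 (3.61 to 60.0). Without P19N replicate 6, which held all 3, P19N is at 0 and the fitted value, -6.65, is no bound. Neither had a unique count. Both were called (log2 fold changes of -3.58 and -3.45), the first not without P19N replicate 5 (adjusted p = 0.145) and the second not without P19N replicate 4 (0.109). Gm24945, Gm24095, Gm25852 and Gm22488 had means under 10 counts and were named after their values were seen, so that all 31 called members are listed.

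Members within 1 host gene could lie far apart in fold change. There were 13 host genes with more than 1 member, 32 members in all, and in 9 of these genes the highest and lowest log2 fold changes differed by more than 1. The pair in Gsk3b is Gm25617 annotated at 2 overlapping places, which leaves 8 of 12 genes when members that overlap are not compared. Taf1d, a subunit of the RNA polymerase I selectivity factor, held 4 members. Gm22579 and Gm22620 were called lower there (-3.17 and -2.71), but no count of Gm22579 was unique, so its reads cannot be assigned to this gene alone. The far more abundant Gm24455 lay just outside the threshold (-1.21, edgeR adjusted p = 0.0505). It was called lower with DESeq2 size factors (-1.35, edgeR adjusted p = 0.0325) and TMM on snoRNAs only (-1.22, 0.0189), but not with TMMwsp or total counts. Without 1 library it ran from -1.83 to -1.04. Gm25791 was at -0.09 with 211, 77.0 and 217 CPM in UD-P19 and 164, 156 and 151 CPM in P19N. In Gm22620 the levels were 81.0, 42.7 and 101 CPM in UD-P19 and 10.6, 11.9 and 11.2 CPM in P19N, with no overlap. Cct6a held Snora15 at -3.58 and Gm23245 at 0.16, the widest spread, 3.75. In Snhg12, Snora61 and Snora44 were at -1.21 and -0.06 beside the Snora16a forms, and without 1 library Snora61 ran from -2.30 to -0.83. The 3 members of Eif4a2, which codes for a translation initiation helicase, ran from -0.71 (Gm24201) over -0.34 (Gm26447) to 1.21 (Gm24616), none called. The pairs in Rpl5, Tcp1, Rpsa and Pabpc4 differed by 0.06, 0.09, 0.25 and 0.36. Differences between members of 1 gene were not tested. The mRNAs of the protein coding hosts are not rows of this table.

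**Figure D3:**
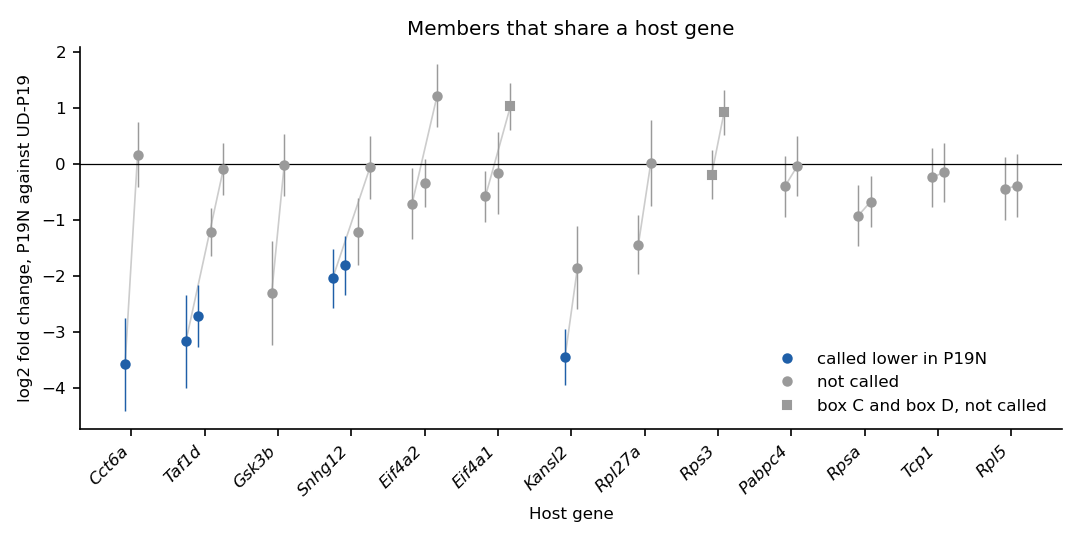
Log2 fold change, P19N against UD-P19, with its standard error, of 32 members in 13 host genes that hold more than 1, ordered by the spread within the gene. The Gsk3b pair and the Snora16a pair in Snhg12 are each 1 snoRNA annotated as 2 overlapping transcripts. In Cct6a 1 member was called lower and the other lay near 0, while both members of Rpl5 lay at about the same value.

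Per unit of length, Gm24029 in Eif4a1 was the most abundant member, with a mean of 9034 CPM per kilobase over the 6 libraries, followed by Snord15a (4003), Gm25835 (3975), Snora7a (3053) and Gm24455 (2881). The order differed between the groups. In UD-P19, Gm24029 (10829) was followed by Snord15a (4276), Gm24455 (4027), Snora21 (4012) and Gm26447 (3150), and in P19N, Gm24029 (7238) by Gm25835 (5328), Gm25776 (4281), Snora7a (4011) and Gm22486 (3755). The 5 with the highest totals held 33.2% of the members' 39033 counts. Gm24029 had 2389, 524 and 1733 CPM in UD-P19 and 1083, 845 and 1177 CPM in P19N. UD-P19 replicates 1 and 3 were above and replicate 2 below all P19N libraries, and no difference passed the test (log2 fold change -0.58 ± 0.46, edgeR adjusted p = 0.360). Without UD-P19 replicate 2 it was called lower (-0.99, adjusted p = 0.0116). Snora7a, in an exon of a coding transcript of Rpl32 and a guide for large-subunit rRNA, had 302, 123 and 455 CPM in UD-P19 and 523, 546 and 615 CPM in P19N. The P19N libraries were all higher, log2 fold change 0.94 ± 0.46, edgeR adjusted p = 0.142, and it was called with scaling by total counts (1.2, adjusted p = 0.0418) and on unique counts (1.19, adjusted p = 0.0450). With DESeq2 size factors it was 0.79, and without 1 library it ran from 0.56, without P19N replicate 6, to 1.26. Gm26447 and Snora28, in Eif4a2 and Eif5, were also among the 10 most abundant per unit of length. Their log2 fold changes were -0.34 and -0.38, and 17.2% and 12.8% of their counts were exact. The remaining abundant members are described with the calls above or with boxes C and D.

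The 4 members with boxes C and D were higher in P19N as a share of counts. Together they took 0.164%, 0.0920% and 0.123% of the counts in UD-P19 and 0.242%, 0.219% and 0.231% in P19N, a sum that was not tested. Without the counts of Gm42418 in the total the shares were 0.410%, 0.181% and 0.362% against 0.291%, 0.262% and 0.282%, which overlap, and their mean was lower in P19N. Gm22486, the Snord94 of RefSeq, which guides methylation of U6 snRNA, had 201, 118 and 205 CPM in UD-P19 and 559.6, 583 and 400.4 CPM in P19N. It was higher in every P19N library, log2 fold change 1.56 ± 0.41, edgeR adjusted p = 0.0113, with all 1509 counts unique, and the call was lost without P19N replicate 5 (adjusted p = 0.0783). Gm25835, beside Gm24029 in Eif4a1, had 439.6, 213 and 479.9 CPM in UD-P19 and 979, 760.5 and 562 CPM in P19N (log2 fold change 1.03 ± 0.42, edgeR adjusted p = 0.0911). Snord15b had 221, 145 and 230.0 CPM in UD-P19 and 404, 329 and 395 CPM in P19N (log2 fold change 0.92 ± 0.40, edgeR adjusted p = 0.0988), and Snord15a, in the same gene Rps3, 965, 291 and 642 CPM in UD-P19 and 590.2, 530.4 and 536 CPM in P19N (log2 fold change -0.19 ± 0.43, edgeR adjusted p = 0.769). Snord15b and Gm25835 did not overlap between groups and were not called among transcripts with TMM scaling. Both were called with scaling by total counts (1.11, edgeR adjusted p = 0.0377, and 1.21, 0.0224), and neither with DESeq2 size factors. Gm25835 alone was called with TMMwsp (edgeR adjusted p = 0.0495) and TMM on snoRNAs only (0.0429). When families were summed, a fit over fewer features, both were called (1.06, edgeR adjusted p = 0.0452, and 1.17, 0.0381).

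**Figure D4:**
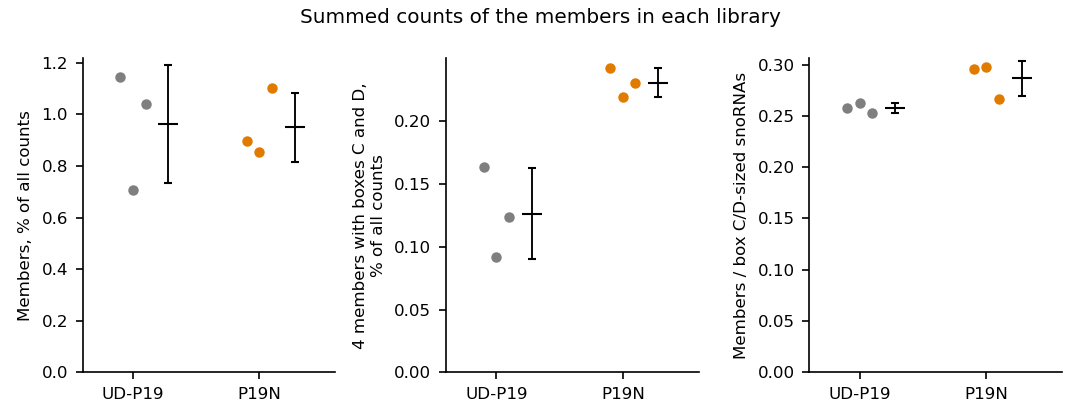
Share of all counts taken by the 118 members (left), share taken by the 4 members with boxes C and D (middle), and ratio of member counts to counts of 128 box C/D-sized snoRNAs (right), by library, with mean and SD (n = 3) beside the points. The left groups overlap, and the other 2 panels show every P19N library above every UD-P19 library. Without Gm42418 in the total the left groups are separate, with P19N lower, and the middle groups overlap, and without the 4 members with boxes C and D the right groups overlap.

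Summed, the members made up 1.15%, 0.707% and 1.04% of all counts in UD-P19 and 0.895%, 0.853% and 1.10% in P19N. The means were 0.964% ± 0.229 (SD, n = 3) in UD-P19 and 0.95% ± 0.133 in P19N. The widest 95% Wilson interval of a library, that of UD-P19 replicate 1, ran from 1.115% to 1.177%. The near equality of the means depends on the total taken. Without Gm42418 the share was 2.44% ± 0.912 against 1.15% ± 0.175, with every P19N library lower, and on unique counts it was 1.13% ± 0.250 against 2.51% ± 0.0642, with every P19N library higher. The 107 members with an ACA near the end took 0.790% ± 0.235 and 0.70% ± 0.129. Relative to the 128 box C/D-sized snoRNAs, member counts were 0.257 ± 0.00503 in UD-P19 and 0.286 ± 0.0170 in P19N. Without the 4 members with boxes C and D the ratio was 0.224 ± 0.00396 in UD-P19 and 0.216 ± 0.00496 in P19N, and the groups overlapped. Without Gm24208 as well, which had 599 of its 749 counts in UD-P19 replicate 2, the ratio was 0.212 ± 0.0136 in UD-P19 and 0.215 ± 0.00514 in P19N, again with overlap, so that the sign of this difference turns with 1 member. For the members named Snora alone it was 0.0882 ± 0.00301 and 0.0736 ± 0.00772. Box C/D-sized snoRNAs had 3 calls higher and 21 lower, a median log2 fold change of -0.45, beside -0.40 for the members. A further list held the scaRNAs, Terc and the Snora transcripts outside the rule. It is not made up of H/ACA RNAs alone, since 2 of the 18 scaRNAs of up to 220 bases had boxes C and D. Of 29 tested transcripts there, 17 were called higher and 1 lower, with a median of 2.05, and since 3 of the genes called higher are listed as 2 transcripts each, the 17 stand for 14 symbols. All 18 calls there were scaRNAs. Of the 6 that were not, Terc, the telomerase RNA, had 10, 6 and 9 counts in UD-P19 and 28, 18 and 28 in P19N (log2 fold change 1.10 ± 0.58, edgeR adjusted p = 0.172), and Snora81 had 111, 200 and 105 against 426, 367 and 315 (1.06 ± 0.39, adjusted p = 0.0595). Snora73a and Snora73b, the U17 RNAs that act in rRNA cleavage, were at -0.24 and 0.28. These classes were not tested against the members.

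The shares that follow stand beside 24% called, 15% higher and 9.02% lower, over all tested transcripts. By name, 10 of 34 members named Snora were called (29.4%), 1 higher and 9 lower, and 21 of 82 named otherwise than Snora or Snord (25.6%), 9 higher and 12 lower. By place, 9 of 72 members in protein coding genes other than those of the ribosome were called higher and 9 lower (25% together), and 4 of 10 in noncoding genes were called lower (40%), Snora15 among them, since Cct6a has the class processed transcript in this annotation. Of 80 members whose counts were mostly unique, 8 were called higher and 11 lower (23.8% together), and of the 24 without a unique count, 2 and 8 (41.7%). On unique counts alone, 83 members could be tested, and 12 were higher and 10 lower (14.3% and 10.6%, together 24.9%, of 510 transcripts); on all counts the same 83 gave 8 and 11, and 18 were called both ways in the same direction. For these 83, the share of calls that were higher thus went from 42.1% on all counts to 54.5% on unique counts. Over all members it went from 32.3% to 46.7% with scaling by total counts, 14 higher and 16 lower (15.2% and 7% of all tested, 22.2% together), and to 23.5% with DESeq2 size factors, 8 higher and 26 lower (13.8% and 14.7%, 28.5% together). Without UD-P19 replicate 2 it was 21.2%, and without P19N replicate 6 it was 18.2%, 6 higher and 27 lower (11.4% and 10.6%, 21.9% together). The longest member had 156 bases, the median length was 133, and GC content ran from 31.9% to 66.9%. The median GC content was 47.3% in members called higher and 46.7% in those called lower.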

How the data were processed

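Small RNA of 3 UD-P19 and 3 P19N exosome preparations was sequenced by the authors after small RNA library preparation and mapped with CLC Genomics Workbench to annotated mouse noncoding RNAs on GRCm38. The authors deposited raw read counts per transcript, for all reads and for reads listed as unique or exact, 2 terms that the sources used here do not define. How reads with several matches were divided, and whether strand was used, is not given in the sources used here. The deposited group means and the columns of the authors' own comparison were not used. Identifiers of 5777 of the 5880 transcripts were found in GENCODE mouse release 21.

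Counts of 1286 transcripts with a total of at least 15 were tested with edgeR 4.0.16 (R 4.3.3), TMM scaling, the quasi-likelihood F test (two-sided) and Benjamini-Hochberg adjustment, without covariates; a call had an adjusted p of at most 0.05. CPM values use TMM-scaled totals of the tested transcripts, and shares use plain totals with Wilson 95% intervals. Near copies were grouped with BLAST 2.17.0, and stems were folded with ViennaRNA 2.7.2. On simulated counts of 1286 transcripts for this comparison, the test recovered 21% of changes of 1 and 69% of changes of 2 on the log2 scale, and 7.22% of 97 calls were false. Alternatives were other filters, scalings, tests (DESeq2 1.42.0 among them), unique counts and leaving out each library.

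The members, gene lists and tests were chosen with earlier results of these data known. Named members were the 15 highest and 15 lowest called members with a mean of at least 10 counts (25 qualified), the 10 with the highest total, those that share a host gene and those nearest the minimum. The other called members were named after their values were seen. Snora28 meets none of these rules and is mentioned for its level per unit of length.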

Additional observations from a re-analysis of the deposited data

How the results depend on the processing

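No called member changed sign under any alternative run. Of the named members' results, 844 kept direction and side of the threshold, 81 lost a call, 37 gained one and 53, over 15 uncalled members, changed sign without a call on either side. The values are log2 fold changes, for Gm25617 those of the 133-base transcript, since the 132-base one kept its sign, and for Snora43 those of the 127-base one. With the filterByExpr filter Snora44 was 0.076, Gm25791 0.060, Gm22154 0.10 and Gm25617 0.12. With TMMwsp Snora44 was 0.044, Gm22154 0.022 and Gm25617 0.087. With total counts Snora44 was 0.21, Snora20 0.037, Gm25791 0.13, Gm22154 0.18, Snord15a 0.021, Gm22988 0.049 and Gm25617 0.26. With TMM on snoRNAs only Snora44 was 0.013 and Gm25617 0.056. On unique counts Gm25791 was 0.14, Gm22154 0.19, Snord15a 0.024, Gm22988 0.69 and Gm25617 0.28. With a minimum total of 5 Gm24888 was -0.074 and Gm24438 -0.015. With DESeq2 size factors Gm24888 was -0.099 and Gm24438 -0.066. In DESeq2 Gm24888 was -0.11. Ranges of the log2 fold change without 1 library were Gm22154 -0.49 to 0.20, Gm22270 -0.92 to 0.11, Gm22988 -0.65 to 0.62, Gm23245 -0.35 to 0.70, Gm24438 -0.45 to 0.62, Gm24888 -1.17 to 0.71, Gm25107 -0.31 to 2.09, Gm25617 -0.49 to 0.45, Gm25791 -0.45 to 0.10, Gm26130 -0.64 to 0.033, Gm26387 -0.79 to 0.14, Snora20 -0.57 to 0.040, Snora43 -1.66 to 0.32, Snora44 -0.53 to 0.22 and Snord15a -0.54 to 0.24.

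Leaving out 1 library gave 14 to 52 called members (4 to 11 higher, 10 to 41 lower) and 8 to 39 called families (3 to 11 higher, 5 to 28 lower). Of the 29 tested scaRNAs, Terc and other Snora RNAs, 12 to 20 were called higher and 0 to 2 lower. Over all tested transcripts, 9.41% to 25.7% were called higher and 4.04% to 15.6% lower. For members and families the highest totals came without UD-P19 replicate 2 and the lowest without P19N replicate 5. Leaving out P19N replicate 4 gave as few families. Of all 813 families, 16.5% were called higher and 17.7% lower without UD-P19 replicate 2. These shares were 4.8% and 3.44% without P19N replicate 5, and 4.8% and 2.95% without P19N replicate 4. At an adjusted p of at most 0.01 there were 14 called members, 4 higher and 10 lower. The share of all tested transcripts was not taken at this threshold, so this count has none beside it. Among Snora-named members there were 10, 1 higher and 9 lower, and among members ending in ACA and 3 bases 6 were higher and 17 lower. Unique counts gave 10 members lower and 11 of the scaRNA list higher, and DESeq2 gave 2 of the latter lower. The cause of these changes was not tested, apart from the smaller sets.

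The difference in the members' share of counts, P19N minus UD-P19, was -0.0141 percentage points, 1.38 on unique counts, -1.29 without Gm42418 and -0.742 of all snoRNA counts, and -0.143 to 0.0765 without 1 library. The difference in the ratio to box C/D-sized snoRNAs was 0.0290, 0.0662 on unique counts, -0.0147 for Snora-named members and, in alternatives chosen after seeing the data, -0.00807 without the members with boxes C and D and 0.00229 without these and Gm24208, and 0.0236 to 0.0388 without 1 library. Over all 1286 transcripts, median log2 fold changes were 0.21 under TMM, 0.05 under DESeq2 size factors and 0.34 under total counts, and over the members they were -0.40, -0.55 and -0.17. No paired analysis was possible because the groups share no replicate number. Changes of 1 on the log2 scale were mostly missed in simulated data at this depth.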
